A study of Mus musculus with 46 samples.

Results

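Claudins are the membrane proteins that build the strands of tight junctions, and the values of 10 claudin genes measured on the arrays are described here: *Cldn1*, *Cldn2*, *Cldn3*, *Cldn4*, *Cldn5*, *Cldn7*, *Cldn8*, *Cldn12*, *Cldn15* and *Cldn23*. They are 10 of 20887 genes with a named probe. They were found through the RefSeq accession of each probe, which gave 12 probes for the 10 genes out of 55681 probes in all, and where a gene had more than 1 probe the brightest in the tissue was used. The mice were male C57Bl/6, 20 weeks old at the end, and had eaten their diets for 8 weeks from 12 weeks of age. The high fat diet (HFD) held 45% of its energy as fat and the low fat diet (LFD) 10%. In the fiber diets, corn starch (5% of the diet by weight) and cellulose (5%) were exchanged for inulin, a fermentable plant fructan (HFD + inulin), or for inulin esterified with propionate (5%) and inulin esterified with butyrate (5%) (HFD + inul PB), so that every fiber diet was also a high fat diet. Total RNA of whole cecum (6 arrays each for HFD and HFD + inulin, 5 each for LFD and HFD + inul PB) and of liver (6 arrays for each diet) was hybridised to one-colour Agilent arrays, 46 in all. The mice carried no genetic change. The methods describe the arrays of a diet as separate mice, the labels name no animal, and P-values therefore measure the spread between these arrays.

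In epithelia, claudins of neighbouring cells meet in the space between them and decide which ions and water pass along that path. Some claudins tighten the seal, among them *Cldn1*, *Cldn3*, *Cldn4*, *Cldn5*, *Cldn7* and *Cldn8*, while *Cldn2* and *Cldn15* form channels for sodium and other small cations. The roles of *Cldn12* and *Cldn23* are less settled and they were kept as a class of their own. *Cldn5* differs from the others in that it is best known from the endothelium that lines blood vessels. In whole tissue, fewer cells of a type and less RNA per cell cannot be told apart.

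A diet was said to change a claudin where the difference was over 1.5-fold with an unadjusted limma P under 0.01, the criteria of the study's methods. A difference was also marked where the P, adjusted by Benjamini-Hochberg over all 55681 probes, was under 0.05. Levels are log2 normalised signals of a probe, and levels of different probes are not compared. A probe counted as detected on an array where the scanner software marked it well above background. In cecum 9 of the 10 claudins were detected on all 22 arrays, and *Cldn1* on none.

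Some cecal arrays stood apart in transcripts of the small intestine. The mean log2 signal over 5 genes typical of that segment (*Fabp6*, *Sis*, *Apoa4*, *Mttp* and *Mmp7*, a list drawn up after the values had been seen) was 13.55 on HFD replicate 5. It was 9.99 on LFD replicate 2, 8.88 on HFD + inulin replicate 1, 8.80 on HFD + inul PB replicate 5 and 8.38 on LFD replicate 3, against 4.20 to 6.43 on the other 17 cecal arrays. The claudins called in cecum against HFD or LFD are therefore also given without these 5 arrays. Correlations with cell type marker lists, the genes most alike and the direct comparison of the fiber diets are not given without them. Each tissue held its main cell type, with a mean over 8 pan-epithelial markers of 14.72 to 15.20 on every cecal array and a hepatocyte marker mean of 16.67 to 17.40 on every liver array. These means do not show that other tissue was absent. In liver the smooth muscle marker mean reached 11.43 on HFD + inul PB (median 7.34) and 10.10 on LFD (median 7.52). In cecum the mesothelium marker mean reached 8.46 on HFD (median 4.35).

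The promoters of *Cldn4*, *Cldn5* and *Cldn3* are shown because *Cldn4* and *Cldn5* fell on the fiber diets in cecum, whereas *Cldn3*, which lies next to *Cldn4* in the gene order, is shown beside them as a claudin that was not called. Each sequence is the 250 bases before the annotated start in RefSeq (GRCm38.p6), written along the gene's strand, and 8 of the 10 claudins had such an entry. Capitals mark TGACTCA, the sequence bound by AP-1 factors, and CAGGTG, an E-box, here on the opposite strand as CACCTG.
Cldn4 (chr5:134946935-134947184, minus strand): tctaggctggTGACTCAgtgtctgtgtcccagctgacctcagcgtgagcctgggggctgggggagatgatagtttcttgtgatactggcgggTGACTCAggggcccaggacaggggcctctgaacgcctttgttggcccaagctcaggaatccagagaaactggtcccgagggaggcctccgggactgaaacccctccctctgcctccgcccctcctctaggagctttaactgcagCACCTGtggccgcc
Cldn5 (chr16:18776597-18776846, plus strand): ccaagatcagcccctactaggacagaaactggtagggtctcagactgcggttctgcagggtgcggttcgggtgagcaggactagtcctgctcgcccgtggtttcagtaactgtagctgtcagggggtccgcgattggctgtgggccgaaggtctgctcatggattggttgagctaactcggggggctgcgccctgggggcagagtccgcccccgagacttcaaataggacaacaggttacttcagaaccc
Cldn3 (chr5:134985964-134986213, plus strand): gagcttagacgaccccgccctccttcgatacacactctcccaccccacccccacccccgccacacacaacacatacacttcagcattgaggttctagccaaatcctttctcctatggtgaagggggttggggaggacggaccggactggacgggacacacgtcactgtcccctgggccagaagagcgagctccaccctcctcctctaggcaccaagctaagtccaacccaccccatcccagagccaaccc

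The *Cldn4* promoter holds TGACTCA at 240 and at 158 bases before the start, and 1 CAGGTG. The *Cldn5* and *Cldn3* windows hold neither sequence, *Cldn15* holds 1 TGACTCA, at 214 bases before the start, and 1 of the 2 *Cldn7* windows holds 2 CAGGTG. Both strands were searched, the motifs were chosen after the *Cldn4* sequence had been read, and they do not overlap one another there. Among 32851 promoters of the same length, 4.46% hold TGACTCA, 0.167% hold it at least 2 times and 17.2% hold CAGGTG. These matches describe letters only. *Cldn8* and *Cldn23* were not matched.

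**Figure D1:**
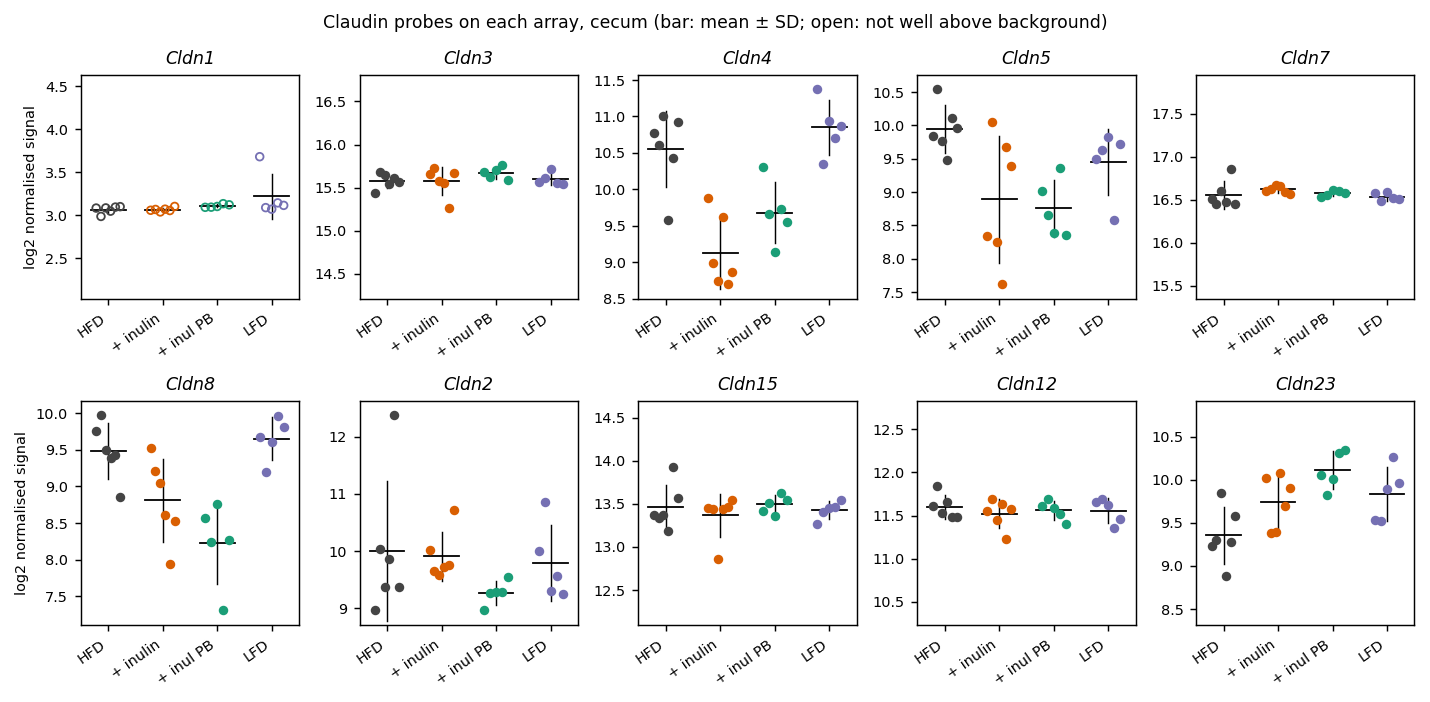
The log2 normalised signal of each claudin probe on each of the 22 cecal arrays, by diet, with the mean and SD as bars; open points are not well above background. *Cldn4* on HFD + inulin (8.70 to 9.88) lies mostly below HFD (9.57 to 11.002), while *Cldn3* and *Cldn7* keep a narrow range on every diet, and each panel has its own axis of at least 2.5 log2 units.

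In cecum, inulin in the HFD lowered 2 of the 10 claudins by fold and P, *Cldn4* and *Cldn5*, against 2.47% of all probes in either direction and 1.3% lower. With the adjusted P, *Cldn4* alone passed, against 1.58% of all probes. HFD + inul PB changed 4 of the 10, against 4.69% of all probes: *Cldn4*, *Cldn5* and *Cldn8* fell (2.15% of probes fell) and *Cldn23* rose (2.54% rose). *Cldn8* and *Cldn23* passed the adjusted P, against 7.02% of all probes. LFD changed 0 of the 10 by fold and P, against 0.639% of probes, and 0 by the adjusted P in limma, against 0%. At an unadjusted P under 0.05 the count was 1, *Cldn23*, and the share of all probes at that cut was not computed. Since most claudins are bright in cecum, the share among detected probes, those that at least 1 diet had above background throughout, is the closer comparison. It was 3.76% with inulin and 7.79% with the esters. All 3 comparisons share the HFD arrays.

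*Cldn4*, a claudin that limits the passage of cations, had a lowest, median and highest level of 9.57, 10.69 and 11.002 on HFD and of 8.70, 8.92 and 9.88 on HFD + inulin. Its levels were 10.31, 9.66, 9.15, 9.73 and 9.55 on HFD + inul PB. On LFD they were 11.37, 10.35, 10.94, 10.705 and 10.87. HFD replicate 4 (9.57) was the only HFD array within the range of the fiber diets, and no fiber array reached the lowest LFD array. Against HFD, *Cldn4* was 2.68-fold lower on HFD + inulin (log2 difference -1.42, SE 0.26, P = 2.3e-05, limma adjusted P = 0.0095; exact permutation P = 0.00649, n = 6 and 6). It was 1.83-fold lower on HFD + inul PB (-0.87, SE 0.27, P = 0.00435, limma adjusted P = 0.057; exact permutation P = 0.0195, n = 5 and 6). On LFD the difference was 0.30 (95% interval -0.27 to 0.86). The smallest P that these exact tests can give is 0.00216, and all were two-sided. The other *Cldn4* probe fell by 1.45 on HFD + inulin (limma adjusted P = 0.0143), and on HFD + inul PB its difference was -0.85 (limma adjusted P = 0.0973), which missed the P criterion. The call on HFD + inul PB was also lost without HFD replicate 3 (-0.78) or 6 (-0.80), without HFD + inul PB replicate 3 (-0.74) or 5 (-0.84), and without the 5 arrays high in small intestinal transcripts (-0.86), whereas that on HFD + inulin held in all of these. Within the 3 cecal slides, each of which held all diets, the difference was -1.25, -1.11 and -1.90 for HFD + inulin and -0.70, -1.14 and -1.04 for HFD + inul PB.

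*Cldn8*, a sealing claudin of the large intestine, had a lowest, median and highest level of 8.85, 9.46 and 9.97 on HFD and of 7.95, 8.83 and 9.53 on HFD + inulin. Its levels were 8.57, 8.25, 8.75, 7.30 and 8.27 on HFD + inul PB and 9.68, 9.19, 9.62, 9.97 and 9.82 on LFD. Every HFD + inul PB array lay below every HFD and every LFD array, whereas HFD + inulin overlapped HFD. The fall on HFD + inul PB was 2.39-fold (-1.26, SE 0.27, P = 0.000182, limma adjusted P = 0.00859; exact permutation P = 0.00433, n = 5 and 6). On HFD + inulin the difference of -0.67 (limma adjusted P = 0.223; exact permutation P = 0.039, n = 6 and 6) did not pass, but it passed fold and P without HFD replicate 6 (-0.80), HFD + inulin replicate 1 (-0.81) or HFD + inul PB replicate 4. Within slides, HFD + inul PB differed from HFD by -1.46, -0.69 and -1.35. The call by fold and P held in all alternatives run, with a range of -1.39 to -1.03.

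Levels of *Cldn5*, the endothelial claudin, were 9.48, 9.90 and 10.54 (lowest, median and highest) on HFD and 7.62, 8.87 and 10.05 on HFD + inulin. They were 9.02, 8.66, 8.39, 9.36 and 8.35 on HFD + inul PB, and on LFD 9.49, 9.64, 9.82, 8.59 and 9.72. All HFD + inul PB arrays were below all HFD arrays, while HFD + inulin split into 3 arrays under 8.4 and 3 within the HFD range or just below it. *Cldn5* was 2.29-fold lower on HFD + inul PB (-1.19, SE 0.36, P = 0.00361, limma adjusted P = 0.0509; exact permutation P = 0.00216, n = 5 and 6). It was 2.09-fold lower on HFD + inulin (-1.06, SE 0.34, P = 0.006, limma adjusted P = 0.128; exact permutation P = 0.0303, n = 6 and 6). With *Cldn8*, it was 1 of 2 claudins whose arrays did not overlap between HFD + inul PB and HFD, against 7.73% of probes; between HFD + inulin and HFD 0 claudins were separate, against 1.47%. Within slides the difference was negative in every case, -0.99, -1.69 and -0.50 for HFD + inulin and -1.35, -1.24 and -1.18 for HFD + inul PB. Both calls depended on single arrays. That on HFD + inul PB was lost without HFD replicate 2 (-1.07) and without replicate 3 (-1.10) or 5 (-1.09) of its own diet. That on HFD + inulin was lost when any of 6 arrays was left out, namely replicate 2, 5 or 6 of HFD and replicate 1, 3 or 4 of HFD + inulin (-1.06 to -0.81). Without the 5 arrays high in small intestinal transcripts the differences were -1.06 (limma adjusted P = 0.228) and -0.92 (limma adjusted P = 0.307), and neither passed.

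Markers of other cell types moved with *Cldn5*. The mean level of 7 adipocyte markers, all detected on at least 8 of the 22 cecal arrays, ranged from 9.67 to 13.27 on HFD, from 5.96 to 12.17 on HFD + inulin, from 5.71 to 9.98 on HFD + inul PB and from 5.56 to 12.57 on LFD. Of the 7, 5 fell on HFD + inul PB (*Adipoq*, *Fabp4*, *Lep*, *Plin1* and *Retn*; list median -4.30), and on HFD + inulin 0 of the 7 passed (list median -2.47). Of 14 blood endothelial markers, all detected, 6 fell on HFD + inul PB (*Emcn*, *Ramp2*, *Sox17*, *Sox18*, *Tek* and *Tie1*; list median -0.67), whereas *Pecam1* differed by 0.04 and *Kdr* by 0.33 without passing; on HFD + inulin 0 of the 14 passed (list median -0.02). Among detected probes 7.79% passed fold and P with the esters and 3.76% with inulin. The endothelial mean ranged from 8.99 to 9.68 on HFD, 8.63 to 10.27 on HFD + inulin, 8.36 to 8.82 on HFD + inul PB and 8.86 to 9.41 on LFD. Over the 22 cecal arrays *Cldn5* correlated with the adipocyte mean at Pearson's r = 0.83 (adjusted permutation P = 0.0014, the smallest the permutations can give) and Spearman's rho = 0.77 (adjusted permutation P = 0.0021), and at 0.81 without the 2 arrays farthest from the median. With the mean of each diet removed r was 0.77. Epithelial lists moved with it as well, the absorptive colonocyte mean at r = -0.71 (rho -0.76, adjusted permutation P = 0.0091 and 0.00327, r without the 2 farthest arrays -0.71, -0.41 with the diet means removed) and the goblet mean at r = 0.69 (rho 0.68, adjusted permutation P = 0.0124 and 0.0158, r without the 2 farthest arrays 0.67, 0.34 with the diet means removed). For the endothelial mean r was 0.66 (adjusted permutation P = 0.0124), rho 0.81 (adjusted permutation P = 0.0014), r without the 2 farthest arrays 0.76, and r with the diet means removed 0.67. These were among 140 relations of a claudin with a marker list, over which the P were adjusted. The permutations moved arrays freely between the diets, so these P do not set diet differences aside. The r with the diet means removed were not tested. The part of any of these cells in the *Cldn5* difference was not tested.

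**Figure D2:**
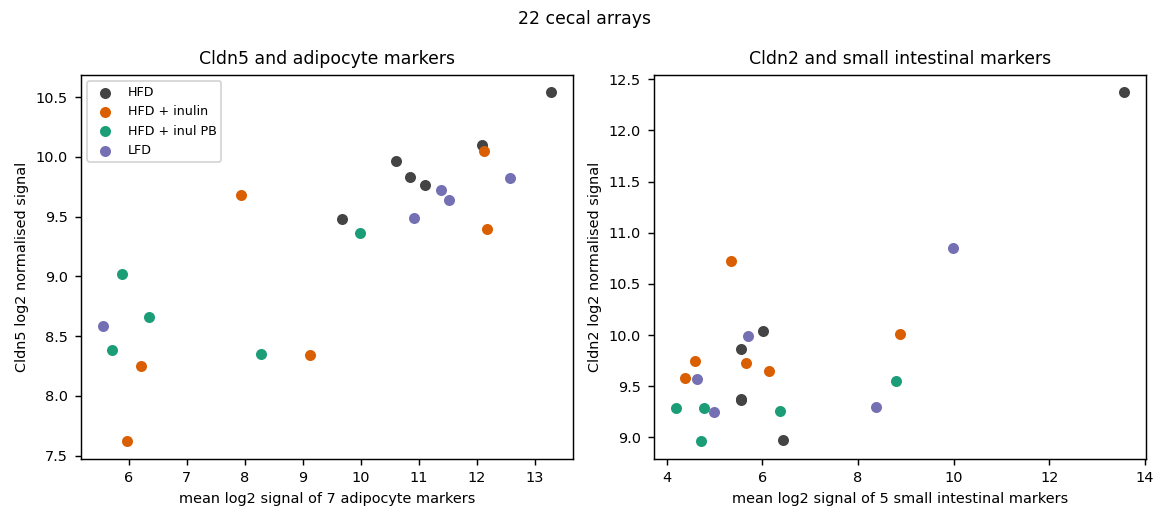
Left, *Cldn5* level against the mean log2 signal of 7 adipocyte markers on the 22 cecal arrays, coloured by diet (r = 0.83); right, *Cldn2* level against the mean of 5 small intestinal markers. The array at the far right of the second panel is HFD replicate 5, at 13.55 for the markers and 12.38 for *Cldn2*, apart from the other 21 points.

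*Cldn23*, whose part in the junction is less settled, went the other way. Its lowest, median and highest levels were 8.89, 9.29 and 9.84 on HFD and 9.39, 9.80 and 10.07 on HFD + inulin. Its levels were 10.06, 9.83, 10.01, 10.32 and 10.35 on HFD + inul PB, and on LFD 9.53, 9.52, 9.89, 10.26 and 9.96. HFD replicate 3, at 9.84, was the only HFD array to reach the lowest HFD + inul PB array, at 9.83, and LFD overlapped HFD. The rise on HFD + inul PB was 1.69-fold (0.76, SE 0.18, P = 0.000358, limma adjusted P = 0.0128, exact permutation P = 0.00649, n = 5 and 6). It passed fold and P in all alternatives run (0.66 to 0.86), but the limma adjusted P reached 0.0888 over these. Without the 5 arrays high in small intestinal transcripts *Cldn23* missed the adjusted P. On HFD + inulin the difference was 0.39 (limma adjusted P = 0.283; exact permutation P = 0.0606) and on LFD 0.48 (limma adjusted P = 0.839; exact permutation P = 0.0476), and neither passed. The fiber diets differed from LFD by 0.10 (95% interval -0.23 to 0.42; -0.045 without the 5 arrays high in small intestinal transcripts).

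Epithelial cell markers moved in the same cecal arrays as *Cldn4*, *Cldn8* and *Cldn23*. Of 9 goblet cell markers, which include the mucin gene *Muc2*, 7 fell on HFD + inul PB and 4 on HFD + inulin, and their mean ranged from 15.78 to 16.25 on HFD, 15.08 to 15.57 on HFD + inulin, 15.04 to 15.29 on HFD + inul PB and 15.46 to 16.08 on LFD. Of 9 absorptive colonocyte markers 3 rose on HFD + inul PB and 3 on HFD + inulin, and their mean ranged from 15.05 to 15.87 on HFD, 15.99 to 16.40 on HFD + inulin, 16.22 to 16.39 on HFD + inul PB and 15.74 to 16.07 on LFD. The share of detected probes past fold and P was 7.79% with the esters and 3.76% with inulin. All 18 of these markers were detected, and of 8 pan-epithelial markers 0 passed (list median -0.09 with inulin and 0.02 with the esters). Of 8 epithelial stem and proliferation markers, all detected, 2 fell on HFD + inul PB (list median -0.52) and 0 passed on HFD + inulin (-0.30), and their mean ranged from 10.56 to 11.03 on HFD, 10.21 to 10.66 on HFD + inulin, 10.09 to 10.41 on HFD + inul PB and 10.53 to 10.69 on LFD.

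Over the 22 arrays *Cldn23* correlated with the goblet mean at r = -0.70 (rho -0.73, adjusted permutation P = 0.0124 and 0.00537, r without the 2 farthest arrays -0.67), and at -0.59 with the diet means removed. For *Cldn23* and the absorptive mean r was 0.69 (rho 0.75, adjusted permutation P = 0.0124 and 0.00537, r without the 2 farthest arrays 0.69) and 0.40 with the diet means removed. With the stem and proliferation mean it was -0.68 (rho -0.73, adjusted permutation P = 0.0124 and 0.00537, r without the 2 farthest arrays -0.60) and -0.38 with the diet means removed. *Cldn8* correlated with the stem and proliferation mean at r = 0.71 (rho 0.65, adjusted permutation P = 0.0103 and 0.021, r without the 2 farthest arrays 0.68), and at 0.37 with the diet means removed. It correlated with the goblet mean at r = 0.61 (rho 0.56, adjusted permutation P = 0.0411 and 0.0955, r without the 2 farthest arrays 0.65), but at -0.23 with the diet means removed. For *Cldn4* the values were r = 0.56 (rho 0.53, adjusted permutation P = 0.0843 and 0.118, r without the 2 farthest arrays 0.58) and -0.34 with the diet means removed. The relations of *Cldn8* and *Cldn4* with the goblet markers thus turned sign within diets, while those of *Cldn23*, and of *Cldn8* with the stem and proliferation markers, kept theirs. With the absorptive mean r was -0.57 for *Cldn8* (rho -0.67, adjusted permutation P = 0.0668 and 0.0178, r without the 2 farthest arrays -0.63). For *Cldn4* and the absorptive mean r was -0.49 (rho -0.54, adjusted permutation P = 0.124 and 0.114, r without the 2 farthest arrays -0.56). With the diet means removed these r were -0.03 and 0.07. As for *Cldn5*, the permutations moved arrays freely between the diets, and the r with the diet means removed were not tested. The part of cell makeup in these differences was not tested.

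The pore-forming claudins did not pass on any diet. *Cldn2* had a lowest, median and highest level of 8.98, 9.62 and 12.38 on HFD and of 9.58, 9.74 and 10.72 on HFD + inulin, and levels of 8.96, 9.26, 9.29, 9.29 and 9.55 on HFD + inul PB and of 9.99, 10.85, 9.30, 9.57 and 9.25 on LFD. The highest HFD value and the highest LFD value came from HFD replicate 5 and LFD replicate 2, the arrays with the most small intestinal transcripts; over the 17 arrays low in them, the correlation of *Cldn2* with that mean was 0.09. Against HFD the difference was -0.09 on HFD + inulin (95% interval -0.97 to 0.78), -0.73 on HFD + inul PB (-1.65 to 0.19) and -0.21 on LFD (-1.13 to 0.71). Without HFD replicate 5 these became 0.38, -0.26 and 0.27, so that HFD + inulin and LFD changed sign, and without all 5 arrays the first was 0.36. *Cldn15*, the other channel former, stayed between 12.86 and 13.93 on all 22 arrays, with differences from HFD of -0.09, 0.03 and -0.03.

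*Cldn3*, *Cldn7* and *Cldn12* were as steady as *Cldn15*. *Cldn3* ranged from 15.27 to 15.76, *Cldn7* from 16.45 to 16.86 and *Cldn12* from 11.22 to 11.84 over the 22 arrays, and their probes were not marked as saturated on any array. Across these 4 claudins and the 3 diets the largest difference from HFD was -0.09 (*Cldn15* on HFD + inulin), and the 95% intervals ran from -0.34 to 0.29. Without HFD replicate 4 the largest absolute difference was 0.15. With arrays scaled to their 75th percentile in place of cyclic loess it was 0.20, with the median of all probes shifted by up to 0.10. *Cldn1* had levels of 2.99 to 3.68 in cecum without being well above background on any array, so no fold is given.

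By class, 3 of the 6 barrier-forming claudins fell on HFD + inul PB (class median -0.43), against 0 of 2 pore-forming claudins (-0.35), and 1 of 2 claudins of unsettled role rose (0.36). On HFD + inulin the counts were 2 of 6 lower (-0.34), 0 of 2 (-0.09) and 0 of 2 (0.16), and on LFD 0 of 6 (0.08), 0 of 2 (-0.12) and 0 of 2 (0.22). The median over all probes was 0.0015, 0.0093 and 0.0041 for these 3 comparisons. Of all probes 2.15% fell and 2.54% rose with the esters, 1.3% fell with inulin, and 0.639% passed on LFD. Among detected probes 7.79% passed with the esters and 3.76% with inulin, in either direction. The barrier-forming claudins that fell include *Cldn5*, the endothelial claudin, on both fiber diets. The pore-forming medians are those of *Cldn2* and *Cldn15* alone, and that on HFD + inul PB comes from *Cldn2*, which did not pass. Without HFD replicate 5 the pore-forming medians were -0.06 with the esters, 0.19 with inulin and 0.17 on LFD. Over the 5 barrier-forming claudins detected in cecum, which leaves out *Cldn1*, the medians were -0.87, -0.67 and 0.02. Without the 5 arrays high in small intestinal transcripts, *Cldn8* and *Cldn23* were called on HFD + inul PB by fold and P and *Cldn8* by the adjusted P, while *Cldn4* was called on HFD + inulin by both.

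**Figure D3:**
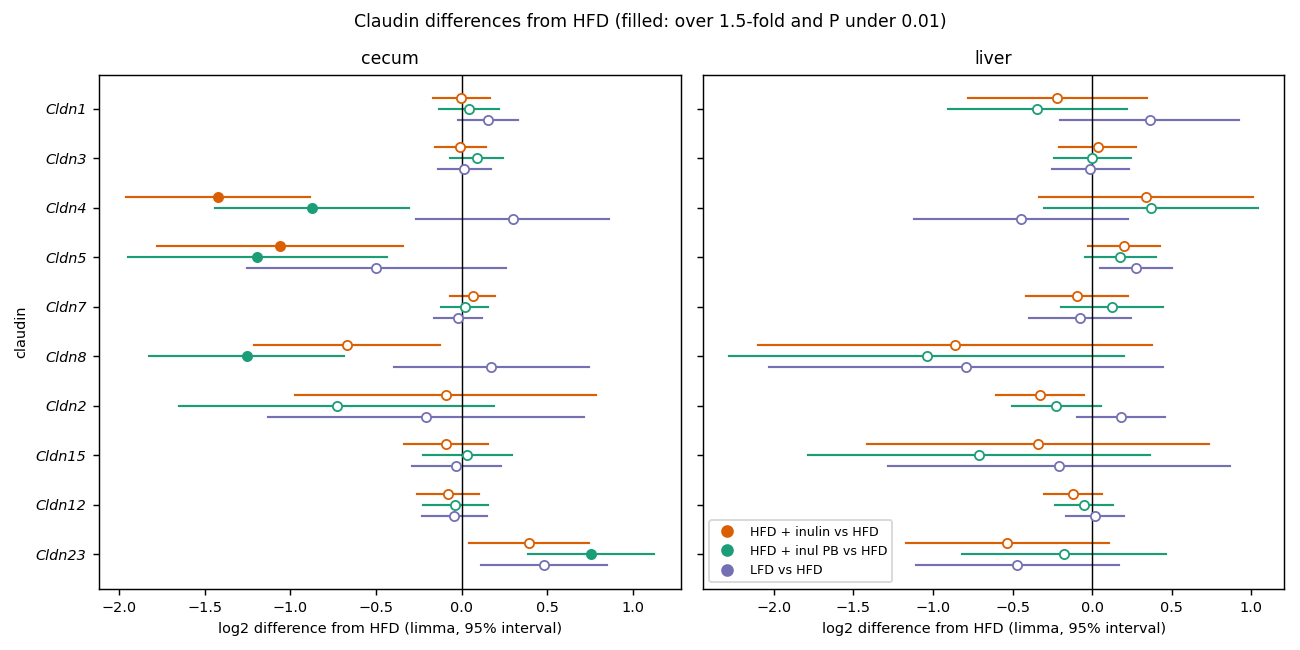
The log2 difference of each claudin from HFD with its 95% interval from limma, in cecum (left) and liver (right), for HFD + inulin, HFD + inul PB and LFD; filled points passed fold and P. The filled points are *Cldn4*, *Cldn5*, *Cldn8* and *Cldn23* in cecum, and the liver panel has none.

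The diets with free and with esterified inulin were compared directly in cecum. By fold and P 0 of the 10 claudins differed, against 0.803% of probes, and 0 by the adjusted P in limma, against 0.0216%. An unadjusted P under 0.05 was found for 1, and the share of all probes at that cut was not computed. HFD + inul PB minus HFD + inulin was 0.55 for *Cldn4* (95% interval -0.02 to 1.12, exact permutation P = 0.0866), -0.59 for *Cldn8* (-1.16 to -0.02, exact permutation P = 0.117), 0.37 for *Cldn23* (-0.0016 to 0.73, exact permutation P = 0.0628) and -0.13 for *Cldn5* (-0.89 to 0.62). These intervals leave room for differences of more than 1.5-fold in *Cldn4*, *Cldn8*, *Cldn23* and *Cldn5*, so the diets were not shown to act alike. *Cldn2* was the only claudin whose arrays did not overlap, against 0.721% of probes, with a highest level of 9.55 on HFD + inul PB and a lowest of 9.58 on HFD + inulin (exact permutation P = 0.00433, n = 5 and 6), but the fitted difference of -0.64 did not pass (limma adjusted P = 0.862). It passed fold and P, though not the adjusted P, when only these diets were fitted. *Cldn8* did so without HFD + inulin replicate 5 (-0.76).

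Set against LFD, the mean of the fiber diets was lower for 2 of the 10 claudins, *Cldn4* and *Cldn8*, by both criteria, against 1.49% of probes by fold and P (2.11% of detected probes) and 1.12% by the adjusted P. *Cldn4* was 2.72-fold lower (-1.44, SE 0.24, P = 8.12e-06, limma adjusted P = 0.00613), and all 11 fiber arrays lay below all 5 LFD arrays (exact permutation P = 0.000229, the smallest it can give), as 0.782% of probes were separate between these groups. *Cldn8* was 2.2-fold lower (-1.14, SE 0.24, P = 0.000157, limma adjusted P = 0.0269; exact permutation P = 0.00229), with overlap, and missed the adjusted P without LFD replicate 1, 3, 4 or 5. Without the 5 arrays high in small intestinal transcripts *Cldn4* passed by both criteria and *Cldn8* by fold and P alone. *Cldn5* differed by -0.63 (exact permutation P = 0.107) and did not pass.

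Other claudins and other genes of the junction were read from lists. Of 20 further claudin genes listed, 18 had a probe and 9 were detected on at least 1 cecal array. By fold and P 1 fell and 1 rose on HFD + inul PB, against 4.69% of all probes. On HFD + inulin and LFD 0 changed, against 2.47% and 0.639%. *Cldn10* had means of 5.91 on HFD and 4.59 on HFD + inul PB (limma adjusted P = 0.0806) but was detected on 4 of 6 and 1 of 5 of these arrays. *Cldn20* had means of 4.13 and 5.47 (limma adjusted P = 0.0698) and was detected on 1 of 6 and 4 of 5. Both are therefore near background. The median over the 18 was -0.11 with inulin, -0.06 with the esters and -0.09 on LFD.

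Of 31 other tight junction genes, 30 had a probe and 29 were detected. *Cxadr*, an adhesion protein of the junction, rose with inulin (0.60, limma adjusted P = 0.0276) and with the esters (0.76, limma adjusted P = 0.0028), from 13.18 ± 0.21 (SD, n = 6) on HFD to 13.78 ± 0.30 (SD, n = 6) and 13.94 ± 0.18 (SD, n = 5). *Pard6b*, a cell polarity gene, rose on HFD + inul PB (0.76, limma adjusted P = 0.0234). *Jam2*, an adhesion molecule of vessels and epithelia, fell there (-0.84, limma adjusted P = 0.0523). In all, 1 of 30 passed by fold and P with inulin, 3 with the esters and 0 on LFD, with medians of 0.05, 0.04 and 0.07. Among detected probes 3.76% passed with inulin and 7.79% with the esters, and 0.639% of all probes on LFD. The junction counts are near these shares. Occludin (*Ocln*), the other well-known strand protein, differed by -0.20 and 0.02 on the fiber diets, and the scaffold gene *Tjp1* by -0.00081 and 0.10, without passing.

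The patterns of the changed claudins over the 22 cecal arrays were each most like a different set of genes. Among 15682 detected probes of named genes, the highest Pearson correlations with *Cldn4* were those of *Plaur* (0.93), the urokinase receptor gene, *Ly6m* (0.91) and *Fosb* (0.89), an immediate early gene. With *Cldn5* they were *Lrg1* (0.94), *Anxa5* (0.93) and *Tgfbr3* (0.93). With *Cldn8* they were *Gm11696* (0.87), *Nol7* (0.86) and *Plpp5* (0.86), and with *Cldn23* *Bnip5* (0.93), *Sik3* (0.89) and *Pla2g6* (0.88). These are descriptions over arrays that share diets and slides.

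In liver few claudin differences between the diets passed a criterion, and the dim probes allowed only wide intervals. *Cldn1*, *Cldn2*, *Cldn3*, *Cldn5*, *Cldn7* and *Cldn12* were detected on all 24 arrays, *Cldn15* on 17, *Cldn23* on 9, *Cldn4* on 5 and *Cldn8* on 2. By fold and P, 0 of the 10 differed from HFD with inulin (0.399% of probes), with the esters (0.289%) or on LFD (0.717%), and 0 between the fiber diets (0.198%). By the adjusted P in limma 0 passed in these comparisons as well, against 0%, 0%, 0.0287% and 0% of probes. At an unadjusted P under 0.05 the counts were 1 with inulin (*Cldn2*, -0.33, exact permutation P = 0.0476), 0 with the esters, 1 on LFD (*Cldn5*, 0.28, exact permutation P = 0.0195) and 0 between the fiber diets. The counts by fold and P and by the adjusted P are near the share of all probes. At an unadjusted P under 0.05 that share was not computed. The 95% intervals for HFD + inul PB against HFD ran from -2.28 to 0.20 for *Cldn8* and from -1.79 to 0.36 for *Cldn15*, so that falls there of more than 1.5-fold were not excluded.

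Between the fiber diets and LFD in liver, 3 of the 10 claudins had an unadjusted P under 0.05. The share of all probes at that cut was not computed. By fold and P 1 passed, against 0.774% of probes, and 0 passed the adjusted P in limma, against 0.0593%. The call was *Cldn4*, at 4.94 on the fiber diets and 4.14 on LFD (0.80, limma adjusted P = 0.471; exact permutation P = 0.00587), detected on 5 of 12 fiber arrays and on 0 of 6 LFD arrays. Its bound against the background of the LFD arrays was under 1-fold, so no fold is given, and the call was lost with normexp (0.20) or no background correction (0.24). It was also lost without replicate 1, 3, 5 or 6 of either fiber diet or replicate 2, 4, 5 or 6 of LFD (0.69 to 0.84), and without replicate 1, 3, 4 or 5 of HFD, which enters only the estimate of the spread.

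*Cldn2*, which in liver is bright on every array, had a lowest, median and highest level of 10.92, 11.44 and 11.62 on HFD, 10.81, 11.03 and 11.24 with inulin, 10.83, 11.13 and 11.59 with the esters, and 11.36, 11.54 and 11.73 on LFD. The LFD arrays lay at or above 11.36, a level that 1 of the 12 fiber arrays exceeded. The fiber diets differed from LFD by -0.46 (SE 0.12, 1.37-fold lower, P = 0.000681, limma adjusted P = 0.203; exact permutation P = 0.000593, n = 12 and 6), short of the 1.5-fold criterion. The other *Cldn2* probe differed by -0.39 (limma adjusted P = 0.558), and within the 3 liver slides the difference was -0.43, -0.56 and -0.39. *Cldn1*, a barrier claudin of hepatocytes and bile ducts, differed by -0.64 (95% interval -1.13 to -0.16, limma adjusted P = 0.498; exact permutation P = 0.0186) and did not pass in that fit. It passed fold and P with slide (limma adjusted P = 0.282) or replicate number (0.214) as a block, and without HFD + inulin replicate 1 (-0.74), HFD + inul PB replicate 1 (-0.68) or LFD replicate 3 (-0.76). Within slides the difference was -0.73, -0.63 and -0.57, and its levels were 8.30 to 9.25 on HFD, 7.64 to 9.45 on HFD + inulin, 7.67 to 8.76 on HFD + inul PB and 8.53 to 10.04 on LFD.

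**Figure D4:**
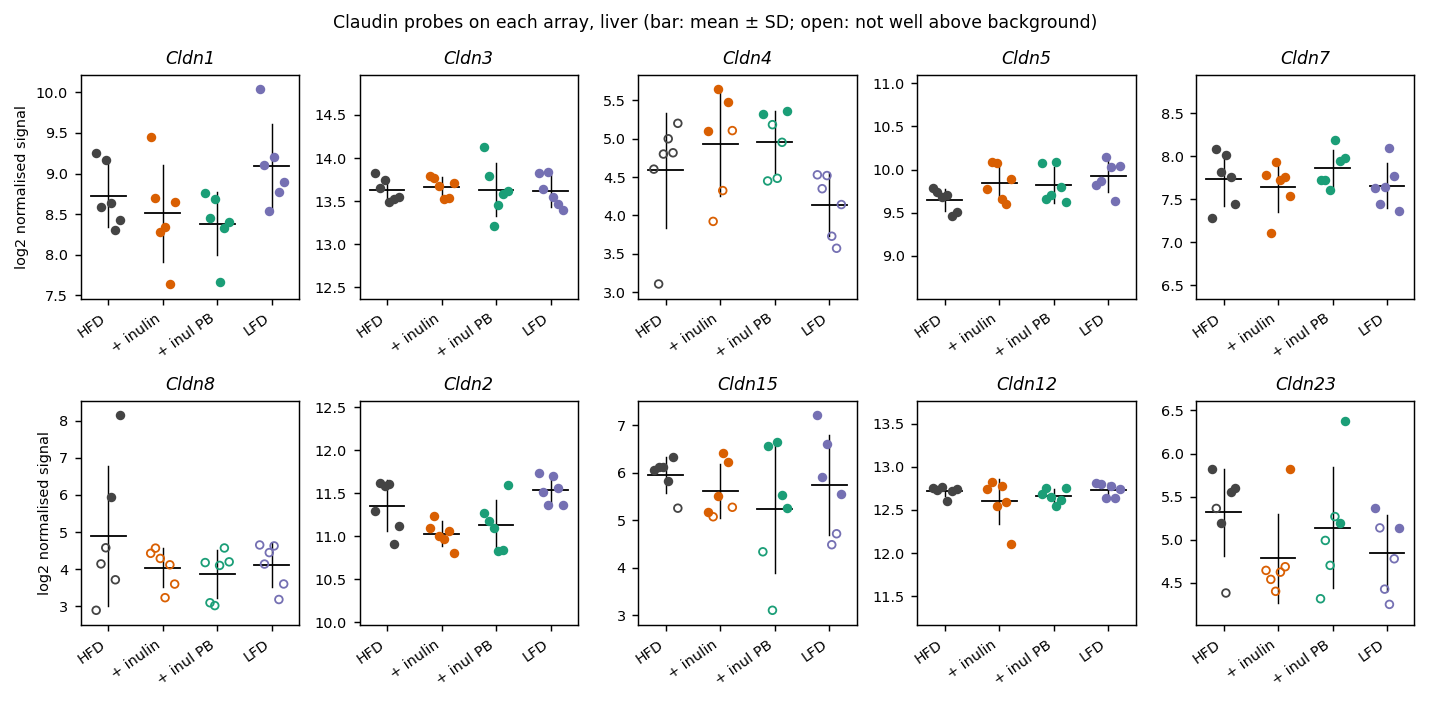
The log2 normalised signal of each claudin probe on each of the 24 liver arrays, by diet, with the mean and SD as bars; open points are not well above background. *Cldn2* on LFD (11.36 to 11.73) sits above most of the fiber arrays, and the *Cldn4*, *Cldn8*, *Cldn15* and *Cldn23* panels hold open points.

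The 46 arrays were also normalised together, so that the same probe could be compared between the tissues on HFD. Of the 10 claudins 9 differed by the adjusted P, as 46.9% of all probes did, so that a difference between cecum and liver was common. Slides held 1 tissue each, so slide and tissue cannot be told apart. *Cldn7* was 340-fold higher in cecum (16.34 ± 0.17 against 7.93 ± 0.32, SD, n = 6 each), *Cldn15* 136-fold (13.21 ± 0.24 against 6.12 ± 0.36, detected on 5 of 6 liver arrays), *Cldn23* 12.8-fold (9.10 ± 0.34 against 5.42 ± 0.48, detected on 4 of 6) and *Cldn3* 3.07-fold (15.43 ± 0.10 against 13.81 ± 0.13). *Cldn4* was at least 28.7-fold higher in cecum, as its probe was not well above background on any liver HFD array. That bound sets the mean of the brighter tissue against the background level of the other's arrays. *Cldn8* differed by 4.32 on the log2 scale, with 2 of 6 liver arrays detected and overlap between the tissues.

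Liver had the higher level of 3 claudins on HFD. *Cldn1* was at least 18.4-fold higher in liver, since it was not well above background in cecum. *Cldn12* was 2.79-fold higher (12.91 ± 0.06 against 11.43 ± 0.14) and *Cldn2* 3.33-fold (11.55 ± 0.30 against 9.81 ± 1.24), the latter with overlap through HFD replicate 5 of cecum. *Cldn5* was the exception among the 10, with a difference of -0.10 (SE 0.25, limma adjusted P = 0.805).

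**Figure D5:**
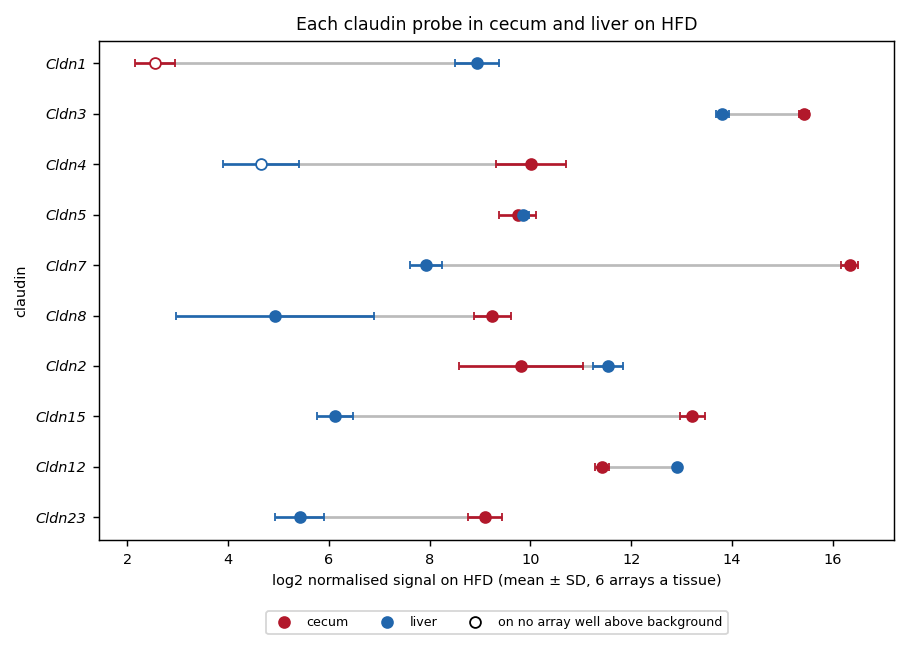
Mean and SD of each claudin probe's log2 normalised signal on HFD in cecum and liver, 6 arrays a tissue, from the joint normalisation; a grey line joins the tissues for the same probe. *Cldn7* and *Cldn15* have the longest lines toward cecum and *Cldn1* the longest toward liver, and the *Cldn5* points lie on top of each other.

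Whether the response to fiber differed between the tissues was tested as an interaction, the mean of the fiber diets minus HFD in cecum minus the same in liver. By the adjusted P 2 of the 10 claudins differed, *Cldn5* and *Cldn4*, against 2.1% of probes, and 3 by fold and P, with *Cldn23* added, against 3.09%. The *Cldn5* response was -1.14 in cecum and 0.20 in liver (difference -1.34, SE 0.31, limma adjusted P = 0.0154). In cecum 5 of the 7 adipocyte and 6 of the 14 endothelial markers fell on HFD + inul PB, and 0 of either list passed on HFD + inulin. Among detected cecal probes 7.79% passed with the esters and 3.76% with inulin. In liver 0 of the 14 endothelial and 0 of the 7 adipocyte markers passed on either fiber diet. The share of all liver probes was 0.289% with the esters and 0.399% with inulin, so these counts are near it. The part of these cells in the *Cldn5* interaction was not tested. The *Cldn4* responses were -1.16 and 0.37 (difference -1.53, SE 0.39, limma adjusted P = 0.0242), the liver value resting on a probe that was not above background on HFD, and the other probe gave -1.01 (limma adjusted P = 0.118). The *Cldn23* responses were 0.57 and -0.34, the latter from a probe detected on 4 of 6 HFD, 1 of 6 HFD + inulin and 2 of 6 HFD + inul PB liver arrays (difference 0.91, SE 0.32, limma adjusted P = 0.14), and the P criterion was missed in 19 of 52 alternatives. For *Cldn5* and *Cldn4* fold and P held in all 52 alternatives, but their limma adjusted P reached 0.0529 and 0.0623. Without the 5 arrays high in small intestinal transcripts, 1 of the 10 claudins passed the adjusted P. The median interaction over all probes was -0.012.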

How the data were processed

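Cecum and liver RNA of mice on 4 diets was measured on 46 one-colour Agilent arrays, and the authors deposited for each the spot intensity written by Feature Extraction 10.7.3.1, with the local background subtracted in its processed signal. The authors also deposited log2 values normalised by cyclic loess and averaged over identical probes in R, for which the labels name limma. How their background was treated is not given in the sources used here.

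From the scanner files, control spots and outlier spots were left out. The log2 processed signal was normalised by cyclic loess within each tissue (span 0.7, 3 iterations), and spots of a probe were averaged. All diets of a tissue entered 1 limma model (limma 3.58.1, R 4.3.3), which was tested on simulated data. All 12 claudin probes were tested with no filter on dim probes. Two-sided exact permutation tests were added for single claudins. Tissues were compared in 1 model of all arrays normalised together. Tissue and diet came from the sample labels. One cecal array of HFD + inul PB and 1 of LFD that the methods describe as removed are not analysed here. The number of arrays limits the precision.

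Probes were named through RefSeq accessions (GRCm38.p6), which gave a symbol to 27509 of 55681 probes. Promoter sequences came from RefSeq on the same assembly. The genes named are the 10 claudins, the junction genes past fold and P in cecum on a fiber diet, and the 3 genes most like each changed claudin; *Ocln* and *Tjp1* were added after their values had been seen. The claudins, lists and tests were chosen with earlier results of these data known.

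Alternatives were 75th percentile scaling, quantile normalisation, normexp (offset 50), uncorrected signals, the authors' values, only probes well above background, the mean of a gene's probes, only the diets compared, slide or replicate number as a block, each array left out and, added after seeing the data, the 5 arrays high in small intestinal markers left out. The normexp and uncorrected values used the median spot signal, since the files hold no mean. No array pair was identical, and the highest correlation of any pair was 0.99.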

Additional observations from a re-analysis of the deposited data

Results flagged for a closer look

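Within a diet, 5 of 60 groups of arrays held an array far from the others by Dixon's criterion, and chance gives about 1 in 20 such groups. In cecum, *Cldn2* was 12.38 on HFD replicate 5, the array with the most small intestinal transcripts. *Cldn3* was 15.27 on HFD + inulin replicate 5, with the next at 15.56. *Cldn5* was 8.59 on LFD replicate 4, with the next at 9.49; that array had the lowest adipocyte marker mean of the LFD arrays, 5.56. *Cldn15* was 12.86 on HFD + inulin replicate 3, with the next at 13.43. In liver, *Cldn12* was 12.60 on HFD replicate 4, with the next at 12.72.

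In the main fit, though not in all alternatives (highest limma adjusted P = 0.0529), the response to fiber differed between cecum and liver for *Cldn5* (-1.34) by the adjusted P. *Cldn4* (-1.53) also passed it and *Cldn23* (0.91) passed fold and P alone, but in liver the *Cldn4* probe was not above background on any HFD array, its other probe gave -1.01 (limma adjusted P = 0.118), and the *Cldn23* probe was detected on 9 of 24 liver arrays, so these values set cecum against a level near background.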

How the results depend on the processing

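Of 226 recomputations of the main counts under another setting, single arrays left out aside, 206 kept the main count or stayed within 1.5 times of it. Many main counts were 0, often where few or no probes passed at all. The 206 therefore say little about the claudins that were called. With only the diets compared in the fit, claudins changed on HFD + inulin in cecum went from 2 to 1 by fold and P and from 1 to 0 by the adjusted P, and those differing between the fiber diets from 0 to 1 (*Cldn2*). Without the 5 arrays high in small intestinal markers, the cecal counts were 1 with inulin and 2 with the esters by fold and P, 1 on HFD + inul PB and 1 for fiber against LFD by the adjusted P, and 1 for the interaction with tissue. On HFD + inul PB 4 claudins passed the adjusted P, in place of 2, with normexp, no background correction, the authors' values, only probes well above background, or slide as a block. In liver, fiber against LFD gave 0 claudins by fold and P, in place of 1, with normexp, no background correction, the authors' values, only probes well above background or the mean of all probes, and 2 with slide as a block (*Cldn1* added). The largest difference of *Cldn3*, *Cldn7*, *Cldn12* and *Cldn15* in cecum rose to 0.20 with 75th percentile scaling. The cause of these shifts was not tested. *Cldn2* on HFD + inulin in cecum turned from -0.09 to 0.014 with the mean of its probes and to 0.36 without the 5 arrays, and *Cldn23* for fiber against LFD from 0.10 to -0.045 without them.

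Leaving out each array in turn, the counts by fold and P ranged from 1 to 3 on HFD + inulin, 2 to 4 on HFD + inul PB and 0 to 1 between the fiber diets in cecum, 0 to 2 for fiber against LFD in liver, and 2 to 3 for the interaction. The adjusted counts ranged from 1 to 2 with inulin, 2 to 3 with the esters, 1 to 2 for fiber against LFD and 1 to 3 for the interaction. *Cldn2* on HFD + inulin ranged from -0.30 to 0.38 and *Cldn5* between the fiber diets from -0.39 to 0.10. Over all alternatives the *Cldn23* interaction missed the P criterion in 19 of 52.

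The main fit did not pair arrays by replicate number. Same-numbered arrays of different diets deviated together with r from -0.33 to 0.52 in cecum (median 0.10, over 0.1 in 15 of 31 pairs). In liver r ran from -0.19 to 0.56 (median 0.18, over 0.1 in 25 of 36), and same-numbered arrays shared a slide. With the replicate block the cecal counts by fold and P were 2 with inulin and 4 with the esters, and *Cldn8* on HFD + inul PB was -1.35; the liver count for fiber against LFD was 2, with *Cldn1* added.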
